A study of Homo sapiens with 8 samples.

Results

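The messenger RNAs of CTCF and of 8 genes of the cohesin machinery (RAD21, SMC1A, SMC3, STAG1, STAG2, NIPBL, PDS5A and PDS5B) were followed through a chromium time course in human lymphoblastoid cells, a B cell culture immortalised by Epstein-Barr virus. The 9 genes were taken by symbol from tables of 23710 gene symbols, all 9 were found, and all 9 passed the filter on low counts that kept 12536 genes for testing. The 4 groups, each with 2 libraries, were a control with no chromium and 3 groups treated for 24 h with 5 µM hexavalent chromium. Of these 3, 1 was labelled as 24 h treatment and the others as 3 and 7 days post treatment. The series design counts time from the onset of exposure instead, so whether the days run from the start or the end of the treatment is not settled. All came from 1 cell line, and the control was taken ahead of the exposure, so exposure and time in culture cannot be told apart in any comparison with it. The labels number the replicates without saying whether they were separate cultures, so p-values measure the spread between these libraries, which may be technical.

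CTCF is a zinc finger protein that binds DNA at the borders of chromatin loops. Cohesin is a ring of SMC1A, SMC3 and RAD21, with either STAG1 or STAG2 attached, that draws out DNA loops until it meets CTCF and also holds sister chromatids together until mitosis. NIPBL loads cohesin and drives loop growth, whereas PDS5A and PDS5B bind the ring and control its release and its arrest. In B cells the same proteins shape the immunoglobulin loci.

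Promoter windows from RefSeq (GRCh38.p14), running from 250 bases before to 50 after the annotated start, are shown for CTCF, whose level differed most from control, and for STAG1, PDS5A and PDS5B, whose levels were most alike over the libraries. Capitals mark 3 short motifs, searched on both strands. The first is the GC box, spelled GGGCGG, which Sp-family factors bind. The second is the box bound by NF-Y, spelled CCAAT. The other is the cell cycle homology region of promoters active late in the cell cycle, spelled TTTGAA. None of these motifs overlapped another in the windows shown. The windows lie at chr16:67562276-67562575 on the plus strand for CTCF, chr3:136752329-136752628 on the minus strand for STAG1, chr4:39977862-39978161 on the minus strand for PDS5A and chr13:32586202-32586501 on the plus strand for PDS5B.
CTCF: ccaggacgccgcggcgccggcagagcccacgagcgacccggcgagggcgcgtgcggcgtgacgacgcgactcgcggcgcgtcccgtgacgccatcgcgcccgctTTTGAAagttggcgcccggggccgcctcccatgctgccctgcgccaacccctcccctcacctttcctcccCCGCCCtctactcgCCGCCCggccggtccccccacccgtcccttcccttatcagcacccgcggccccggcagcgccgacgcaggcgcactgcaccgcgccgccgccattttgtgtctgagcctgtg
STAG1: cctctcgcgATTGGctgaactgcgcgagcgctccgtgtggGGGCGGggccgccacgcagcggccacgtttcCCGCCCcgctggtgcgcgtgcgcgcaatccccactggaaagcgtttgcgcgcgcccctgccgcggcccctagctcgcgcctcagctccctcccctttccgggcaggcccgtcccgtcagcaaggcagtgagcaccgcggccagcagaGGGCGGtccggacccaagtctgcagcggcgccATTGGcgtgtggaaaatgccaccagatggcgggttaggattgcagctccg
PDS5A: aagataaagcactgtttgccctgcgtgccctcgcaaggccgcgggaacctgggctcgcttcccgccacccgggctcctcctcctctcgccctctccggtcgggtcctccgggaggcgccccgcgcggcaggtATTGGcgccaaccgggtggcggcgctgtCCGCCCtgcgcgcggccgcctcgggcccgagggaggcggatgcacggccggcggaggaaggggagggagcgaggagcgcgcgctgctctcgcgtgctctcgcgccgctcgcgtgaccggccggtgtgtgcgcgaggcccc
PDS5B: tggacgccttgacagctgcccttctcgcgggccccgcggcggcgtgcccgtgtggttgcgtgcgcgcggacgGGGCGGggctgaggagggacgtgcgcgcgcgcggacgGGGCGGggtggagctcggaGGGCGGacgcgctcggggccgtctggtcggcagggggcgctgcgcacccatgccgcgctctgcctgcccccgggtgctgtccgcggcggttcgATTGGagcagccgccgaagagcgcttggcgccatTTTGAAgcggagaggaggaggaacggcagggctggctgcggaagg
The 4 windows were rich in G and C, with 75.3% in CTCF, 71.3% in STAG1, 76.0% in PDS5A and 75.7% in PDS5B, against a median of 58.3% over 27305 promoter windows of the same length. They were the 4 highest of the 8 member windows read. STAG2 had 67.3%, NIPBL 67.0%, SMC1A 61.0% and SMC3 56.0%, the last below that median. GGGCGG occurred in all 8 member windows that were read, and in 44.6% of all windows. CCAAT occurred in STAG1, STAG2, PDS5A and PDS5B and not in the windows of CTCF, SMC1A, SMC3 or NIPBL, and in 35.7% of all windows. TTTGAA occurred in CTCF, SMC3 and PDS5B, and in 15.4% of all windows. These matches describe the letters and are not evidence that a factor binds there.

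All 9 genes were well expressed, with 455 to 5174 reads in a library. Levels between genes were compared as CPM (reads per 1000000 counted reads, scaled with TMM factors) per kilobase of exon, with exon lengths from GENCODE 29. RAD21, the ring's cleavable closing subunit, stood highest at 77.2 ± 10.7 CPM per kilobase (SD over the 8 libraries) and was above STAG2 in 8 of 8 libraries. STAG2 followed at 49.1 ± 8.03, SMC3 at 42.1 ± 11.4 and CTCF at 40.3 ± 7.29. These 3 neighbours changed places between libraries, STAG2 lying above SMC3 in 6 of 8 and SMC3 above CTCF in 4 of 8. PDS5A stood at 34.5 ± 3.99, above PDS5B in 8 of 8 libraries. PDS5B stood at 26.8 ± 6.23, SMC1A at 23.3 ± 3.72 and NIPBL at 18.8 ± 3.64 CPM per kilobase. PDS5B lay above SMC1A in 4 of 8 libraries, so their order was not fixed. STAG1 was lowest, at 12.9 ± 3.92 CPM per kilobase, below NIPBL in 8 of 8 libraries. Among the tested genes with a known length, RAD21 was at percentile 95.1 and STAG1 at percentile 62.6 of this level.

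**Figure D1:**
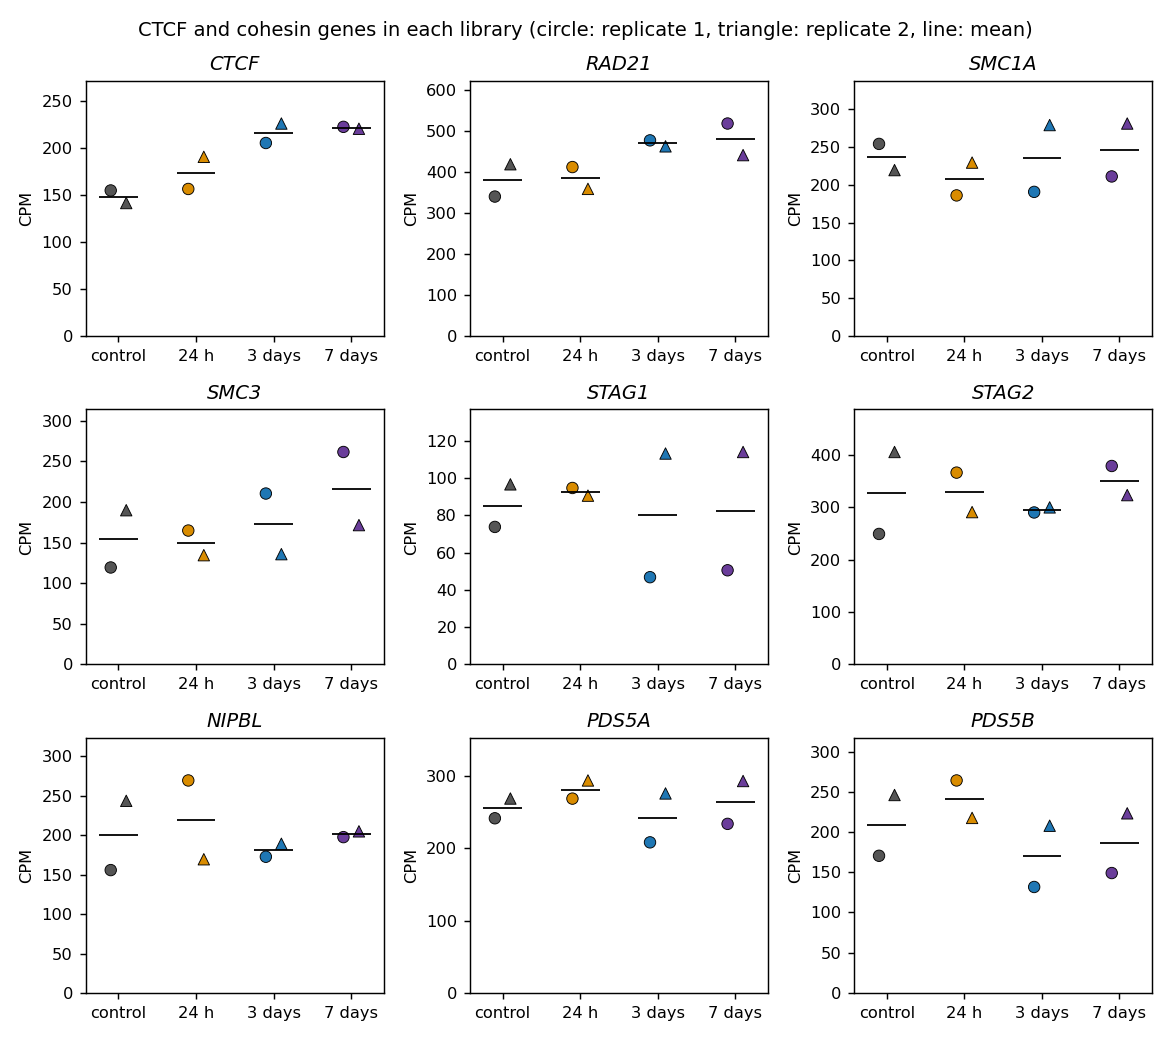
CPM (y axis from 0) of the 9 genes in each of the 8 libraries, by group along the x axis; circles are replicate 1, triangles replicate 2 and lines the mean of 2. The 4 CTCF points at 3 and 7 days lie between 205 and 226 CPM, above all control and 24 h points, while the 2 STAG1 points at 3 days and at 7 days lie far apart.

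Whole-library facts that bear on these values are few. Total gene counts ran from 9478459 to 11110830. All 9 B cell markers exceeded 10 CPM, and together they reached 2520 to 3600 CPM in a library. Of these 9, CR2 stood at 95 to 160 CPM in the 4 late libraries against 226 to 291 CPM in the 4 control and 24 h libraries, and MS4A1 at 818 to 999 CPM against 1140 to 1640 CPM. These 2 of 9 markers were thus wholly lower in the late libraries, as were 7.43% of all tested genes, and the other 7 markers overlapped. CTCF and RAD21 show the same split upward, as did 5.93% of all tested genes. CR2 had a log2 fold change of -1.06 ± 0.32 (SE) at 3 days (adjusted p = 0.843 in edgeR) and -0.99 ± 0.32 at 7 days (adjusted p = 0.851 in edgeR), and the part of this in the member results was not tested. Of 5 T or NK cell, 5 myeloid, 5 stromal or epithelial and 4 erythroid markers, none reached 10 CPM. Their summed levels were 0.186 to 1.34 CPM, 0.981 to 3.39 CPM and 1.21 to 5.53 CPM for the first 3 lists, with 2 of the 5 T or NK cell markers at 0 in every library, and all 4 erythroid markers were at 0. Replicate 1 at 3 days, with 39.4% of reads under no feature, and replicate 1 at 7 days, with 36.5%, stood apart from the other libraries, which had 44.4% to 51.5%. In both of them longer genes were lower relative to replicate 2. Member fold changes whose direction turned without these 2 libraries are given with and without them, an alternative chosen after seeing the data.

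No member passed the test in any comparison: with edgeR's quasi-likelihood test and Benjamini-Hochberg adjustment over all 12536 genes, 0 of 9 had an adjusted p under 0.05 at 24 h, 3 days or 7 days against control, nor in the joint test of the 3 exposed groups, where the adjusted p was 0.9999 for each member. The background was likewise 0% of tested genes in each of these comparisons. At an unadjusted p under 0.05 there was 0 of 9 members at 24 h (background 0.175% of genes), 1 of 9 at 3 days (background 5.29%), 1 of 9 at 7 days (background 4.94%) and 0 of 9 in the joint test (background 3.56%). DESeq2 and limma-voom also called 0 members in each of these comparisons. The single member under 0.05 at 3 and at 7 days was CTCF. Between exposed groups, both 3 day libraries lay above both 24 h libraries for CTCF and RAD21 (2 of 9, background 17%), and both 7 day libraries did so for CTCF, RAD21 and SMC3 (3 of 9, background 17.9%). No member had both 7 day libraries below both 24 h libraries (0 of 9, background 19.1%). STAG2 and NIPBL had both 7 day libraries above both 3 day libraries (2 of 9, background 5.24%), and no member had them below (0 of 9, background 6.41%). The fold change was above 0 for 4 of 9 members at 3 days against 24 h (background 51.3%), for 5 of 9 at 7 days against 24 h (50.2%) and for 9 of 9 at 7 against 3 days (49.6%). In the 3 comparisons between exposed groups edgeR called 0 members, where the background was 0%, and 0 members had an unadjusted p under 0.05 (background 6.09% for 3 days against 24 h, 5.96% for 7 days against 24 h and 0.247% for 7 against 3 days). This fit takes no account of replicate gaps that 2 groups share. Replicate differences over genes correlated at 0.811 between 7 and 3 days and at -0.599 between 24 h and control. In these 2 comparisons the shared gap counts as spread, so a lack of low p-values does not show that the groups were alike.

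CTCF stood at 155 and 141 CPM in control, 156 and 190.3 at 24 h, 205 and 226 at 3 days, and 222 and 220.2 at 7 days. All 4 libraries at 3 and 7 days lay above all 4 control and 24 h libraries, and both 24 h libraries lay above both controls. The means were 215 ± 14.6 CPM at 3 days and 221 ± 1.41 at 7 days, against 148 ± 9.44 in control (SD, n = 2 each). This gave a log2 fold change of 0.54 ± 0.20 (SE) at 3 days, with a 95% interval from 0.08 to 1.00 and an unadjusted p of 0.0262 in edgeR (adjusted p = 0.843). At 7 days it was 0.58 ± 0.20, from 0.12 to 1.04, with an unadjusted p of 0.0195 in edgeR (adjusted p = 0.851). At 24 h the value was 0.23 ± 0.20, from -0.23 to 0.69 (adjusted p = 1). Without both late replicate 1 libraries the values were 0.62 at 3 days (unadjusted p = 0.0243 in edgeR) and 0.58 at 7 days (unadjusted p = 0.0320 in edgeR). The unadjusted p was above 0.05 in several alternatives. With all libraries kept it was 0.0672 at 3 days and 0.0507 at 7 days in an edgeR fit of the 2 groups alone, and 0.0561 at 3 days with no count filter. With control replicate 2 left out it was 0.136 at 3 days and 0.111 at 7 days in edgeR, and with control replicate 1 left out it was 0.0701 and 0.0573. It was 0.110 at 3 days when 3 day replicate 2 was dropped, and at 7 days 0.0622 when 7 day replicate 1 and 0.0509 when 7 day replicate 2 was dropped. In bulk RNA, a change in which cells are present and a change in RNA per cell cannot be told apart.

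RAD21 stood at 339 and 418 CPM in control, 411 and 358 at 24 h, 476 and 462 at 3 days, and 517 and 440.3 at 7 days. Its late libraries also lay above all 4 earlier ones, at 440.3 CPM or more against 418 CPM or less. Overlap on the opposite strand with UTP23 makes its counts uncertain, since the strand setting of the counting is not given in the sources used here; UTP23 had at most 493 reads in a library. The log2 fold change was 0.31 ± 0.22 (SE) at 3 days (95% interval -0.19 to 0.81) and 0.34 ± 0.22 at 7 days (-0.16 to 0.84) against control, adjusted p = 0.843 and 0.851 in edgeR. CTCF and RAD21 were the 2 of 9 members whose libraries at 3 days lay wholly above control, and the same 2 of 9 did so at 7 days. The background for lying wholly above control was 16.7% of genes at 3 days and 16.6% at 7 days. At 24 h it was CTCF alone, 1 of 9, with a background of 11.4%. No member lay wholly below control at 24 h, 3 days or 7 days, where the background was 12.5%, 17.2% and 17.9%. Over the 4 late and 4 early libraries, 2 of 9 were wholly separated upward, where the background was 5.93%.

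A contrast of both late groups with control and 24 h together was chosen after these values were seen, and replicate 1 at 3 days deviated together with replicate 1 at 7 days, so the 4 late libraries are not 4 independent samples. In it CTCF had a log2 fold change of 0.45 ± 0.14 (unadjusted p = 0.0130, adjusted p = 0.275 in edgeR) and RAD21 0.31 ± 0.15 (adjusted p = 0.383 in edgeR). With this contrast 0 of 9 members passed, against a background of 0.00798% of genes, and 1 of 9 had an unadjusted p under 0.05 (background 14.2%). The fold change was above 0 for 4 of 9 members (background 50.5%), and 0 of 9 had all late libraries below all early ones (background 7.43%).

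**Figure D2:**
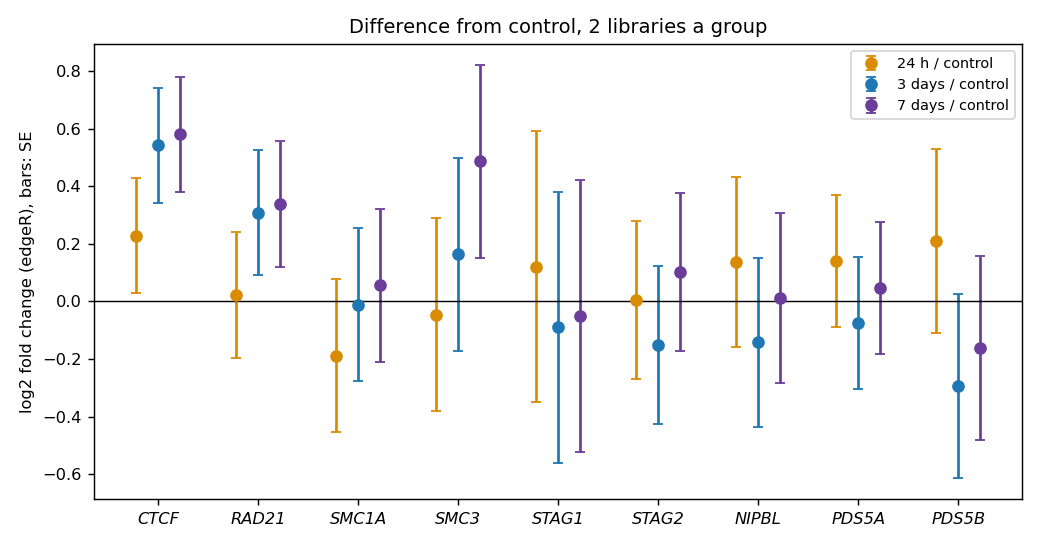
Log2 fold change against control (y axis) of each gene at 24 h, 3 days and 7 days, fitted by edgeR with 2 libraries a group; bars are standard errors. CTCF at 3 days (0.54) and 7 days (0.58) lies farthest from 0, and the bars of the STAG genes, NIPBL and the PDS5 genes reach across 0 in all cases.

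The 2 SMC proteins form the arms and hinge of the ring. SMC3 stood at 119 and 189.8 CPM in control, 165 and 134 at 24 h, 210.3 and 136 at 3 days, and 261 and 171 at 7 days. The groups overlapped except that both 7 day libraries lay above both 24 h libraries, and replicate 1 was the higher library at both late times. SMC3 had a log2 fold change of 0.16 ± 0.34 (SE) at 3 days and 0.49 ± 0.34 at 7 days against control, with a 95% interval from -0.29 to 1.26 at 7 days (adjusted p = 0.851 in edgeR). The 3 day value was -0.18 without both late replicate 1 libraries. SMC1A stood at 254 and 219.6 CPM in control, 186 and 229 at 24 h, 191 and 279 at 3 days, and 211 and 281 at 7 days. Here replicate 2 was the higher library in each exposed group, and the late groups spanned the control values. Its log2 fold change at 3 days was -0.01 ± 0.27 and at 7 days 0.06 ± 0.27, with 95% intervals from -0.62 to 0.60 and from -0.56 to 0.67. Without both late replicate 1 libraries the SMC1A log2 fold change was 0.25 at 3 days and 0.25 at 7 days.

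The STAG proteins are alternative subunits that place cohesin on DNA. STAG2, whose gene lies on the X chromosome and is often mutated in cancers, stood at 249 and 406 CPM in control, 366 and 291 at 24 h, 290.4 and 300.1 at 3 days, and 379 and 324 at 7 days. The 2 control libraries were the lowest and the highest of all 8. Its log2 fold change was -0.15 ± 0.27 at 3 days and 0.10 ± 0.27 at 7 days, or -0.02 at 7 days without both late replicate 1 libraries. STAG1 stood at 73.7 and 96.5 CPM in control, 94.6 and 90.5 at 24 h, 46.8 and 113 at 3 days, and 50.5 and 114 at 7 days. The 2 late replicate 1 libraries were the lowest of all 8 for this gene and the 2 late replicate 2 libraries the highest. The 3 day STAG1 mean of 79.9 ± 46.9 CPM and the 7 day mean of 82.2 ± 44.8, against 85.1 ± 16.1 in control (SD, n = 2 each), therefore describe neither late replicate. Its log2 fold change was -0.09 ± 0.47 at 3 days and -0.05 ± 0.47 at 7 days, with 95% intervals from -1.18 to 0.99 and from -1.14 to 1.03. Without both late replicate 1 libraries these values were 0.42 and 0.42. PCCB overlaps STAG1 on the opposite strand, with at most 904 reads in a library, so STAG1 counts are uncertain in the same way as those of RAD21.

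NIPBL stood at 156 and 244 CPM in control, 269.6 and 169.6 at 24 h, 173 and 189 at 3 days, and 198 and 205 at 7 days. The widest gap was inside the early groups, and all 4 late libraries lay within the control range. Its log2 fold change was 0.14 ± 0.29 at 24 h, -0.14 ± 0.29 at 3 days and 0.01 ± 0.29 at 7 days. PDS5A stood at 242 and 269 CPM in control, 269 and 294 at 24 h, 208 and 276 at 3 days, and 234 and 293 at 7 days. PDS5B stood at 170.4 and 246 CPM in control, 264 and 218 at 24 h, 132 and 208 at 3 days, and 149 and 223 at 7 days. PDS5A had a log2 fold change of -0.08 ± 0.23 at 3 days, or 0.12 without both late replicate 1 libraries, and 0.05 ± 0.23 at 7 days. For both PDS5 genes the 2 late replicate 1 libraries were the lowest of all 8. PDS5B had the lowest fold change of the 9 at both late times, -0.29 ± 0.32 at 3 days and -0.16 ± 0.32 at 7 days, with 95% intervals from -1.03 to 0.44 and from -0.90 to 0.57. It lay wholly below 24 h at 3 days, 1 of 9 members, where the background was 17.6%. Without both late replicate 1 libraries the PDS5B values were 0.01 and 0.10.

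As a group the 9 genes had a median log2 fold change of 0.12 at 24 h (7 higher and 2 lower, none past the test), -0.08 at 3 days (3 higher and 6 lower) and 0.06 at 7 days (7 higher and 2 lower). The median over all tested genes was 0.01 at 3 days and within 0.01 of 0 at 24 h and 7 days, and the share of genes above 0 was 50%, 51.2% and 50.1%. Relative to the control mean, the member median was -0.17 in replicate 1 and 0.11 in replicate 2 at 3 days, and 0.02 and 0.20 at 7 days. The counts were 6 of 9 higher at 3 days (median 0.12) and 8 of 9 at 7 days (0.20) without both late replicate 1 libraries. The control libraries themselves lay at -0.19 and 0.19, so the medians of 5 of 6 exposed libraries were inside the control pair and 7 day replicate 2 was just above it.

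The members differed in how far replicates parted. At 3 days the log2 difference of replicate 1 minus replicate 2 was -1.27 for STAG1, -0.66 for PDS5B, -0.55 for SMC1A and 0.63 for SMC3, and at 7 days it was -1.17, -0.58, -0.41 and 0.61 for the same 4 genes. For STAG1, 10.5% of tested genes differed more at 3 days and 12.5% at 7 days. RAD21 parted least at 3 days, by 0.04, where 95.1% of tested genes differed more, and CTCF least at 7 days, by 0.01, where 98.6% did. The median absolute difference was 0.41 for the members and 0.49 for all tested genes at 3 days, and 0.33 and 0.47 at 7 days. In control the members parted more than most genes, with a median of 0.39 against 0.26, led by STAG2 (-0.70), SMC3 (-0.67) and NIPBL (-0.64).

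Exon length moved with these differences. The exon lengths of the members run from 4114 bases for SMC3 to 10647 for NIPBL, all above the median of 3689 bases for tested genes. Over all tested genes, the median replicate difference at 3 days was 0.38 in the decile of shortest genes and -0.36 in that of the longest, and at 7 days it was 0.31 and -0.37. With a smooth trend on length removed from each library, the member median at 3 days was 0.10 and at 7 days 0.21, and the signs of SMC1A (0.17), NIPBL (0.10) and PDS5A (0.06) at 3 days turned. CTCF kept its direction, with 0.58 at 3 days (unadjusted p = 0.0158, adjusted p = 0.849 in edgeR) and 0.62 at 7 days (unadjusted p = 0.0116, adjusted p = 0.827 in edgeR). The part of exon length in the replicate differences of single members was not tested.

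**Figure D3:**
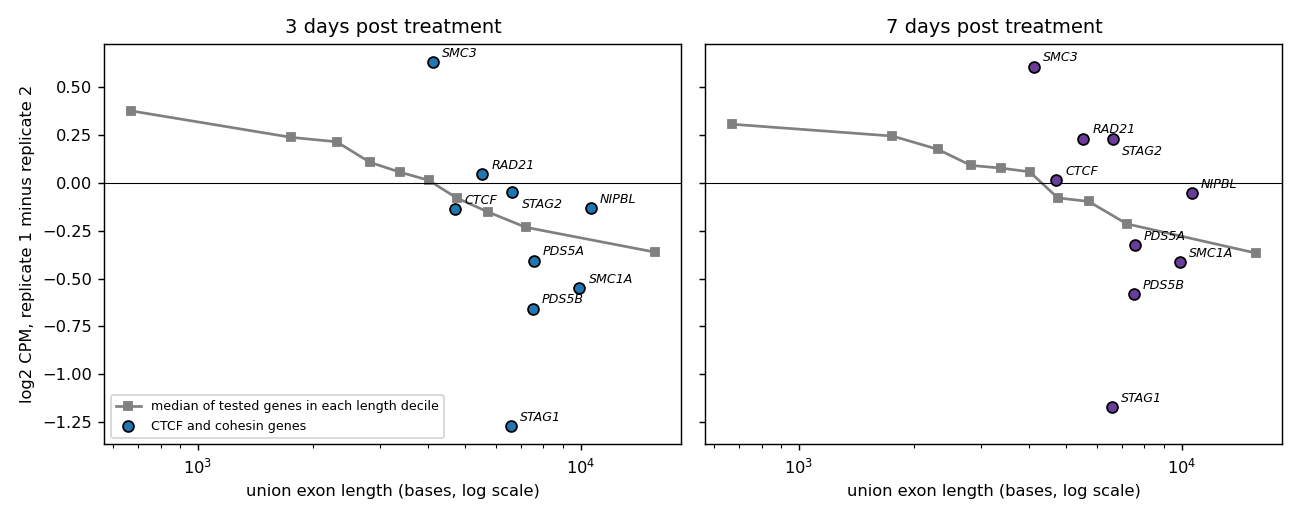
Log2 CPM of replicate 1 minus replicate 2 (y axis) against exon length in bases (x axis, log scale) at 3 and 7 days post treatment; grey squares are medians of tested genes in deciles by length, circles the 9 genes. The grey line falls with length, and STAG1 (-1.27 and -1.17) and SMC3 (0.63 and 0.61) lie far from it on opposite sides.

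Ratios within a library need no scaling between libraries, and 4 were tested with an exact permutation test over the 105 ways to place 8 libraries in 4 pairs, whose smallest possible p is 0.00952. The STAG2 to STAG1 count ratio was 3.38 and 4.21 in control, 3.88 and 3.22 at 24 h, 6.21 and 2.65 at 3 days, and 7.51 and 2.84 at 7 days. It was highest in the late replicate 1 libraries and lowest in the late replicate 2 libraries. The groups did not differ beyond this spread (exact p = 0.971, adjusted p = 0.991 over the 4 ratios). All 4 tests take the 8 libraries as exchangeable, although the late replicate 1 libraries deviated together. That shared gap counts as spread within groups, so a high p does not show that a ratio was equal between groups. The SMC1A to SMC3 ratio was 2.13 and 1.16 in control, 1.13 and 1.71 at 24 h, 0.907 and 2.06 at 3 days, and 0.808 and 1.64 at 7 days. SMC3 counts exceeded SMC1A counts in the 2 late replicate 1 libraries and in no other (exact p = 0.819, adjusted p = 0.991). The PDS5A to PDS5B ratio ran from 1.02 in 24 h replicate 1 to 1.58 in 3 day replicate 1 and was above 1 in 8 of 8 libraries (exact p = 0.467, adjusted p = 0.991). The NIPBL to PDS5A ratio ran from 0.577 to 1.00, both at 24 h (exact p = 0.990, adjusted p = 0.991).

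**Figure D4:**
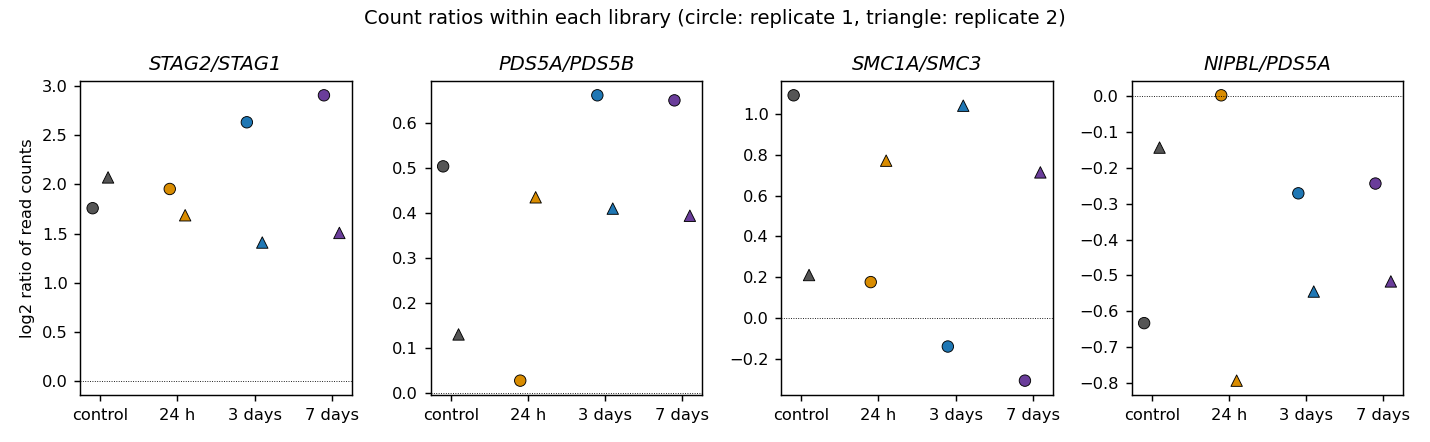
Log2 ratio of read counts of 2 genes within each library (y axis), by group; circles are replicate 1 and triangles replicate 2. The late replicate 1 points of STAG2/STAG1 (2.63 and 2.91) lie above, and the late replicate 2 points (1.41 and 1.51) below, all control and 24 h points.

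Likeness over the 8 libraries is given as Pearson r of log2 CPM, as a description, since the libraries share groups and close pairs. By this measure the members did not share a single pattern. STAG1 and PDS5A had r = 0.91, STAG1 and PDS5B 0.88, PDS5A and PDS5B 0.86. NIPBL and STAG2 had 0.85, and SMC3 and RAD21 0.81. Links between these genes, 0.67 for STAG2 and SMC3 and 0.67 for PDS5B and NIPBL, leave no distinct sets. CTCF was closest to RAD21, with 0.62, and SMC3 and STAG1 were least alike, with -0.59. Of 12189 tested genes outside the lists, the 5 most like CTCF were CDK1 (the mitotic kinase, r = 0.99), RBBP7 (a histone chaperone, 0.98), FGD5-AS1 (a long noncoding RNA, 0.97), SYAP1 (0.97) and PRUNE (0.97). CDK1 stood at 237 and 218 CPM in control, 241 and 289.7 at 24 h, 308 and 363 at 3 days, and 339.9 and 333 at 7 days, with the 8 libraries in the same order as for CTCF. The 5 genes most like the mean of the members were CEP170 (r = 0.97), CEP57L1 (0.97), USP8 (0.97), PPP1R2 (0.96) and DCP2 (0.96). CEP170 encodes a centrosomal protein and DCP2 an mRNA decapping enzyme. Both sets of 5 genes were picked for the highest r among 12189 genes over 8 libraries. A high r or a shared order of libraries is therefore not evidence of a link.

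Other genes of the pathway were read as lists, and none of their tested genes passed the test. Condensin, the related complex that compacts mitotic chromosomes, was higher in 8 of 8 genes at 3 days (median log2 fold change 0.33) and at 7 days (0.41), against 3 of 8 at 24 h (-0.02). Both late libraries lay above both controls for 6 of 8 condensin genes at 3 days and 6 of 8 at 7 days, where the background was 16.7% and 16.6%. NCAPD2, a condensin I subunit, stood at 451 ± 30.3 CPM at 3 days and 488 ± 49.1 at 7 days against 315 ± 65.3 in control, and SMC2 at 139.9 ± 13.3 and 169 ± 9.68 against 119 ± 8.95 (SD, n = 2 each). NCAPD2 at 7 days had a log2 fold change of 0.63 ± 0.25 and SMC2 0.50 ± 0.19, both with an adjusted p of 0.851 in edgeR. NCAPH2, a condensin II subunit, had 0.57 ± 0.38, or 0.05 ± 0.29 without both late replicate 1 libraries. Without those libraries condensin was still higher in 8 of 8 genes at 3 days (median 0.46) and at 7 days (0.47). NCAPD2, NCAPH2 and SMC2 were the 3 condensin genes with the smallest p in the joint test.

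Cohesin regulators were higher in 9 of 13 genes at 3 days (median 0.12) and 8 of 13 at 7 days (0.22), and without both late replicate 1 libraries the counts were 9 of 13 (median 0.17) and 8 of 13 (0.20). Both 3 day libraries lay above both controls for 4 of 13 (background 16.7%) and below for 2 of 13 (background 17.2%). Both 7 day libraries lay above for 7 of 13 (background 16.6%) and below for 1 of 13 (background 17.9%). The 3 with the smallest p in the joint test were CDCA5, PTTG1 and SGOL1, all of which act in sister chromatid cohesion. CDCA5, which encodes sororin, stood at 162 and 70.2 CPM at 7 days against 66.9 and 38.0 in control, with a log2 fold change of 1.15 ± 0.50. PTTG1, the securin that restrains separase, stood at 72.8 and 44.0 against 29.3 and 34.9, with 0.86 ± 0.40. In both genes replicate 1 was the higher library at 3 and at 7 days, and without both late replicate 1 libraries CDCA5 had 0.42 ± 0.40 and PTTG1 0.46 ± 0.22 at 7 days. SGOL1 had 0.40 ± 0.24 at 7 days. WAPL, the release factor that the tables list as WAPAL, had 0.07 ± 0.22 at 3 days, or -0.04 without both late replicate 1 libraries, and 0.23 ± 0.22 at 7 days, and is named outside the rule for its role.

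The SMC5/6 complex, a further SMC machine that acts in repair, was higher in 2 of 7 genes at 3 days (median -0.13) and 4 of 7 at 7 days (0.02). Its 3 genes with the smallest joint p were NDNL2 (NSMCE3), NSMCE1 and SMC6, with 3 day values of 0.67 ± 0.28, 0.51 ± 0.33 and -0.37 ± 0.24. Without both late replicate 1 libraries these 3 values were 0.44 ± 0.22, 0.11 ± 0.24 and -0.26 ± 0.28. The list was then higher in 2 of 7 genes at 3 days and 5 of 7 at 7 days. Loop and boundary partners were higher in 8 of 12 genes at 3 days (median 0.13) and 9 of 12 at 7 days (0.16), but without both late replicate 1 libraries in 5 of 12 (median -0.03) and 6 of 12 (within 0.01 of 0). MAZ, a zinc finger factor found with CTCF, stood at 66.9 ± 4.88 CPM at 3 days and 56.4 ± 0.11 at 7 days against 45.3 ± 4.74 in control (log2 fold change 0.56 ± 0.20 at 3 days, adjusted p = 0.843 in edgeR). LDB1, an adaptor that joins enhancers to promoters, had 30.4 CPM in 3 day replicate 1 and 9.99 CPM in 3 day replicate 2, against 13.9 and 10.9 in control. Its 3 day log2 fold change of 0.70 ± 0.56 rested on replicate 1 and was -0.30 ± 0.28 without both late replicate 1 libraries. PATZ1 had 0.29 ± 0.23 at 3 days, or 0.33 ± 0.24 without them.

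Of 5 germline paralogues 3 passed the count filter. CTCFL, the testis paralogue of CTCF, had 0 reads in all 8 libraries, where 3 reads, the limit that a count of 0 allows, equal 0.264 to 0.331 CPM. RAD21L1 had at most 4 reads. STAG3, a meiotic STAG subunit, stood at 28.0 and 60.3 CPM in control and at 54.1 and 26.4 at 24 h. At 3 days it had 37.2 and 28.8 CPM, and at 7 days 39.9 and 28.9. REC8, the meiotic counterpart of RAD21, ran from 9.15 to 15.4 CPM and SMC1B from 1.41 to 7.74. These 3 genes had log2 fold changes at 7 days of -0.36 ± 0.45, -0.13 ± 0.32 and 1.43 ± 0.68, with SMC1B resting on 77 reads in 7 day replicate 2 and 17 in replicate 1.

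**Figure D5:**
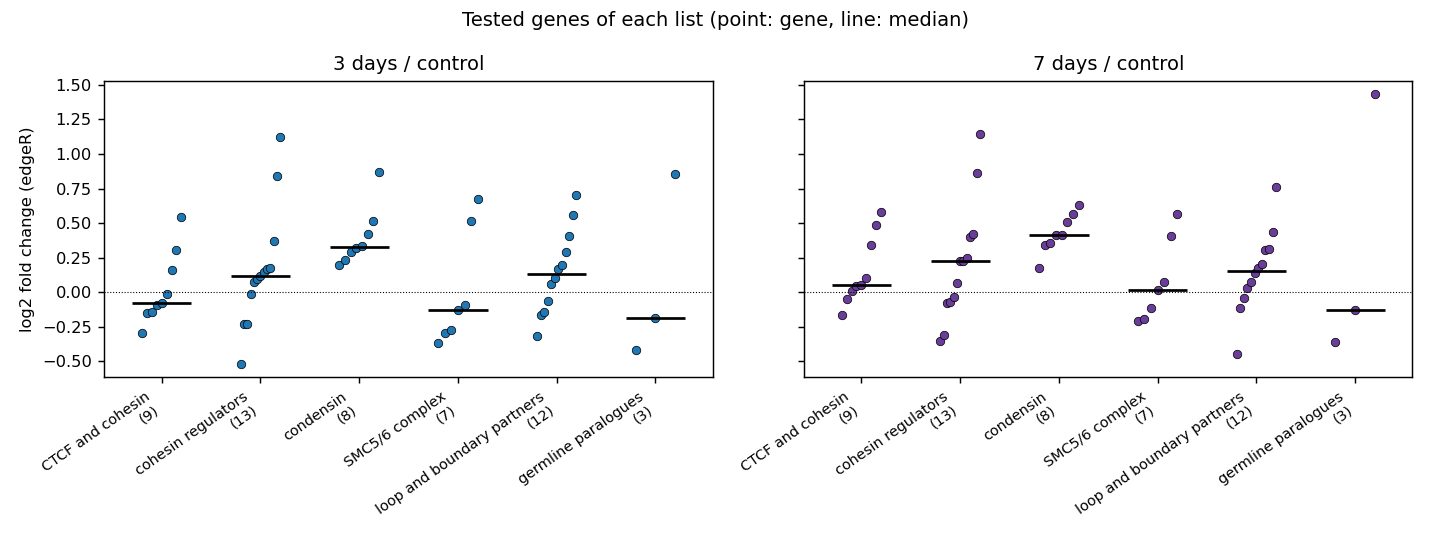
Log2 fold change against control (y axis) of every tested gene in each list (points; number tested in parentheses; line, median) at 3 and 7 days. All 8 condensin genes lie above 0 in both panels, while CTCF and cohesin genes lie on both sides of 0.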

How the data were processed

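RNA from 8 libraries in 4 groups was analysed. Per the file headers and values, the deposited tables hold whole-number read counts per gene symbol made by the authors, 1 table a library, with 5 summary entries that name no gene (42.6% to 57.5% of reads), left out here. Per the submitters' processing notes, which name no role or order, the tools include Bowtie2 and SAMtools, Trim Galore, R 3.2.3 and DESeq2 1.8.1, and the builds are hg19 and GRCh37. Which counter, strand setting and annotation were used is not given in the sources used here. Per the labels' protocols, RNA was selected with poly-T beads and libraries had 15 cycles of PCR, so counts are not independent molecules and limits cover counting error only.

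Genes were kept with filterByExpr (minimum count 10, minimum total 15; 12536 of 23710) in edgeR 4.0.16 under R 4.3.3. TMM scaling and the quasi-likelihood test were fitted to all 8 libraries with no covariate, with Benjamini-Hochberg adjustment over all genes and calls at adjusted p under 0.05. Standard errors come from the F statistic and log2 CPM has a prior count of 2. Exon lengths are unions of GENCODE 29 basic exons matched by symbol (96.8% of tested genes), an annotation of another build than the authors'. RLE and upper-quartile scaling, DESeq2 1.42.0, limma-voom (limma 3.58.1), other filters, robust fitting, a fit of 2 groups, a replicate block, a length correction and leaving out libraries were alternatives. The procedure was tested on simulated data, with libraries drawn independently and changes larger than any member fold change here. That test therefore does not cover late libraries that deviate together or changes as small as those of the members. The promoter scan also covered an NRF1-type motif (2 of 8 member windows, 6.28% of all windows) and a CTCF-core-type motif (3 of 8, 10.6%), each allowing free positions. The members, lists and rules for naming (for each list the 3 smallest p in the joint test, and the 5 genes most alike) were chosen with earlier results of these data known. Promoter windows were scanned for 8 of the 9 members; that of RAD21 was not used here. All lists were matched by symbol or RefSeq synonym.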

Additional observations from a re-analysis of the deposited data

Results flagged for a closer look

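The share of reads counted as ambiguous between genes lies outside the gene counts that the comparisons use. It was 1.05% in 3 day replicate 1, 1.12% in 7 day replicate 1 and 0.781% in 7 day replicate 2, above both control libraries (0.763% and 0.656%). Groups of 2 libraries allow no check for single outlying values within a group.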

How the results depend on the processing

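Under the alternatives run, 0 of 549 values for a member against control reached an adjusted p under 0.05, the count of members called stayed at 0, and 52 of the 549 had the opposite direction. CTCF kept its direction under all of them (0.47 to 0.62 at 3 days, 0.52 to 0.65 at 7 days, unadjusted p up to 0.136 and 0.111 in edgeR or its alternatives), as did RAD21 at 3 and 7 days (0.16 to 0.46 and 0.20 to 0.50). The replicate block called 0 members and 0 genes in each comparison with control (CTCF at 7 days 0.58, unadjusted p = 0.0287), and with crossed numbers at 24 h it also called 0 genes and 0 members. The replicate numbers do not pair the samples across all groups. Replicate differences over genes correlated at 0.811 between 7 and 3 days, whose numbers ran together. The value was -0.599 between 24 h and control. With the 3 and 7 day groups it was 0.337 and 0.321 for control, and -0.318 and -0.308 for 24 h. Over all genes the count was 0 in the other alternatives, but DESeq2 on all genes called 9 at 3 days, 15 at 7 days, 19 and 22 against 24 h and 65 jointly, and a fit with no count filter 11, 16, 21, 25 and 67, none a member. The contrast of late with early groups called 1 gene, against 489 with no filter and 0 with the length trend removed, with or without the replicate block, without both late replicate 1 libraries and without any single library.

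Directions that turned were these log2 fold changes, each with an unadjusted p above 0.05; where no value shows a cause, the cause was not tested. With upper-quartile scaling STAG2 at 24 h was -0.0062, and at 7 days NIPBL was -0.042 and PDS5A -0.0062; with a minimum of 50 counts NIPBL at 7 days was -0.0115. With the length trend removed STAG2 at 24 h was -0.0145, SMC1A, NIPBL and PDS5A at 3 days were 0.17, 0.10 and 0.058, and STAG1 at 7 days 0.014; adding the replicate block gave -0.024 for STAG2 and 0.16, 0.080 and 0.056 for those 3. Without both late replicate 1 libraries, chosen after seeing the data, the member median at 3 days was 0.12, with SMC1A 0.25, SMC3 -0.18, STAG1 0.42, PDS5A 0.12 and PDS5B 0.0053, and at 7 days STAG1 was 0.42, STAG2 -0.016 and PDS5B 0.10.

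With each library left out in turn, the member median ran from -0.081 to 0.33 at 24 h, from -0.21 to 0.21 at 3 days and from -0.029 to 0.37 at 7 days. At 24 h RAD21 ran from -0.12 to 0.18, SMC3 from -0.34 to 0.33, STAG1 from -0.062 to 0.33, STAG2 from -0.31 to 0.40, NIPBL from -0.24 to 0.49 and PDS5B from -0.032 to 0.50. At 3 days SMC1A ran from -0.32 to 0.24, SMC3 from -0.19 to 0.53, STAG1 from -0.87 to 0.41, STAG2 from -0.46 to 0.24, NIPBL from -0.43 to 0.21 and PDS5A from -0.30 to 0.11. At 7 days SMC1A ran from -0.15 to 0.25, STAG1 from -0.74 to 0.42, STAG2 from -0.21 to 0.49, NIPBL from -0.28 to 0.37, PDS5A from -0.11 to 0.20 and PDS5B from -0.47 to 0.13. The log2 ratio at 7 days minus control ran from -0.41 to 0.99 for STAG2/STAG1, from -0.96 to 0.063 for SMC1A/SMC3 and from -0.24 to 0.25 for NIPBL/PDS5A. With 2 libraries a group, intervals as wide as those of STAG1 leave a fold change of either direction possible.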
